A study of Mus musculus with 12 samples.

Results

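The Krüppel-like factor (Klf) genes described here are Klf2, Klf3, Klf4, Klf6, Klf7, Klf9, Klf10, Klf11, Klf13 and Klf15, picked by symbol, 10 of the 24062 gene rows of a count table. They were measured by poly(A) RNA-Seq in 12 libraries of mouse embryonic fibroblasts (MEFs) from a study of BRUCE (Birc6), a giant inhibitor-of-apoptosis protein with ubiquitin-ligase activity, in autophagy under starvation. The shBruce line carried a short hairpin RNA against Birc6 (the hairpin numbered #1) and the shRenilla control line carried a hairpin against Renilla luciferase, which mouse cells lack. Each line was kept in full medium (FM) or starved for 2 h without serum and amino acids (Starv), with 3 replicates in each of the 4 conditions. Each line stands for a single hairpin, so a difference between the lines cannot be told apart from a difference between the cell populations. The 10 genes were proposed with results of these data in view, so their changes and calls are given as a description.

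KLF proteins bind GC-rich and CACCC-type DNA through zinc fingers near the carboxyl terminus and differ in their amino-terminal parts, which recruit activators or repressors. KLF2, KLF4, KLF6 and KLF7 are mainly known as activators, KLF3 as a repressor that recruits CtBP, and KLF9, KLF10, KLF11 and KLF13 as factors that bind the Sin3 corepressor. KLF10 and KLF11 were first described as TGF-beta-inducible early genes, and KLF9 and KLF15 respond to glucocorticoids in many tissues. In fibroblasts several Klf genes are early-response genes whose mRNA changes quickly with serum.

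Total counts were 13200393 to 18510540 in 11 libraries and 7717265 in shBruce Starv replicate 1. Birc6 itself was 4339 ± 942 normalized counts in shRenilla FM and 1287 ± 93.7 in shBruce FM, and 4086 ± 1125 in shRenilla Starv and 1035 ± 288 in shBruce Starv (SD, n = 3), with no overlap between lines in either medium (log2 fold change -1.75 in FM, not called with all libraries, and -1.98 in Starv, called). A normalized count is the count divided by the relative effective size of its library. Of 10 fibroblast markers, summed to between 119223 and 173629 normalized counts per library, Lum was at 0 in both shRenilla groups and Thy1 in shBruce FM, while 6 endothelial markers summed to at most 64.0, 5 epithelial markers to at most 46.4 and 3 muscle markers to at most 38.4. The sum of 5 blood and macrophage markers stayed between 72.3 and 144, with Hba-a1 and Hbb-bs at 0 in each group. Replicates 1 and 3 of shBruce Starv each stood apart from the other libraries of their group. Replicate 1 was more than 1.5-fold above both others for 9.47% of the 12154 tested genes and more than 1.5-fold below both for 8.24%, and replicate 3 for 8.95% and 7.13%. In the shRenilla groups these shares were at most 1.13% and 2.86%. Log2 fold changes of the 10 genes that use the shBruce Starv libraries are therefore also given without replicate 1, and without replicate 3 where that changed a call.

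All 10 genes passed the filter on low counts, Klf15 through its starved libraries, and their levels differed widely. Per kilobase of the longest annotated transcript, Klf6 was highest in shRenilla FM at 967 ± 86.1 normalized counts per kb (SD, n = 3), followed by Klf13 at 410 ± 7.59, Klf10 at 300 ± 16.8, Klf4 at 269 ± 9.49 and Klf2 at 166 ± 7.80. Klf9 at 141 ± 9.67 and Klf3 at 131 ± 19.8 came next and overlapped, and Klf11 at 23.1 ± 2.91, Klf7 at 16.8 ± 1.5 and Klf15 at 2.51 ± 0.48 closed the order. Apart from Klf9 and Klf3, no neighbours in that order overlapped in shRenilla FM. After starvation, Klf13 stood sixth in both lines, at 217 ± 9.73 per kb in shRenilla and 240 ± 57.1 in shBruce MEFs. In the starved shBruce libraries the 6 highest genes, from Klf6 at 850 ± 264 down to Klf13, formed a chain in which each overlapped the next. Klf11 reached 188 ± 5.38 per kb in shRenilla Starv, a level that overlapped that of Klf3 at 181 ± 36.6. Klf6 was first and Klf15 last in each condition, and Klf15 overlapped Klf7 in the starved libraries of both lines.

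**Figure D1:**
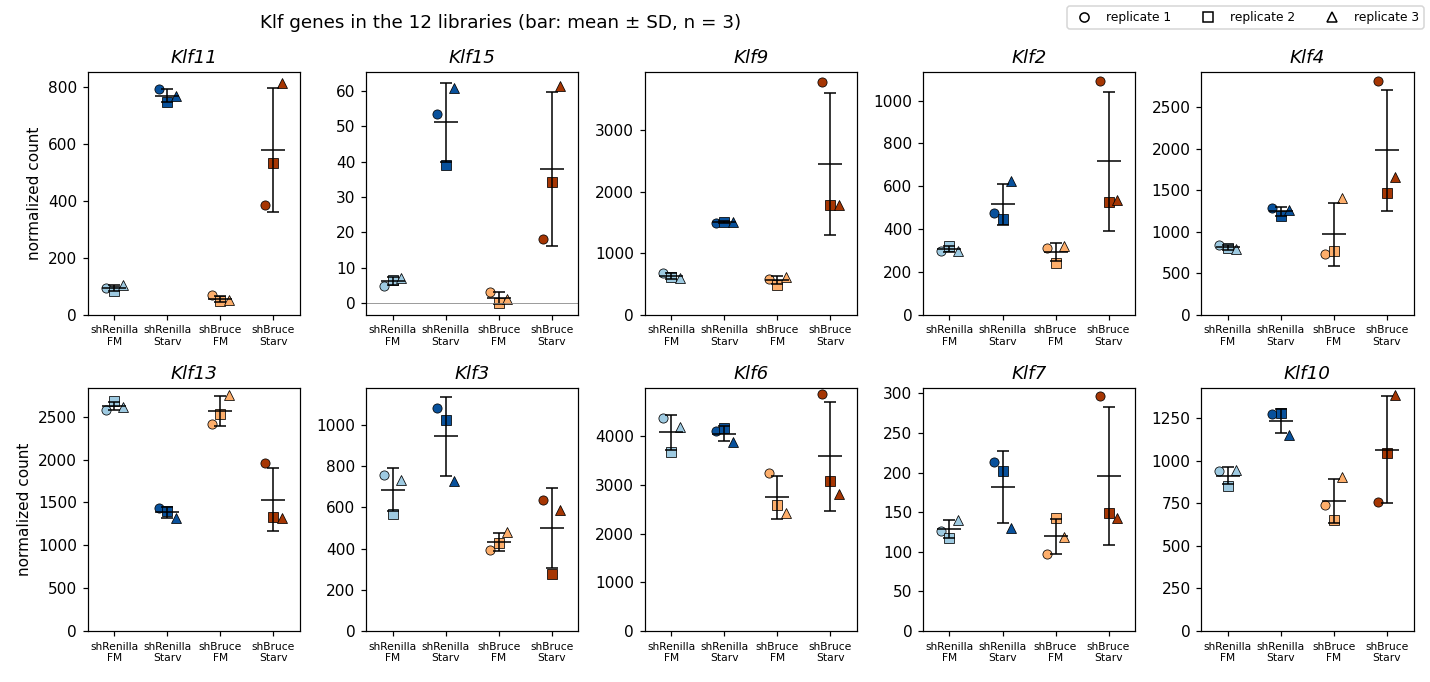
Normalized counts (y axis, linear) of each Klf gene in shRenilla and shBruce MEFs in FM and Starv, with a symbol for each replicate and the mean ± SD (n = 3). Klf11, Klf15 and Klf9 are higher in the starved libraries of both lines, Klf13 is lower, and replicate 1 of shBruce Starv is the highest of its group for Klf2, Klf4, Klf6, Klf7 and Klf9.

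For the 4 genes called in both lines (Klf9, Klf11, Klf13 and Klf15), the DNA directly upstream is shown so that the letters next to these genes can be read beside their values. Capitals mark CACCC, the core of the KLF binding site, GGGCGG, the GC box bound by Sp and KLF proteins, and CACGTG, an E-box bound by basic helix-loop-helix factors, on either strand. The bases are RefSeq promoter sequence on GRCm38.p6, 5′ to 3′ on the strand of the gene, and stop before the first annotated exon. Klf11 lies on chromosome 12 (chr12:24651274-24662789, plus strand) and the shown bases are chr12:24651121-24651273. Klf15 lies on chromosome 6 (chr6:90462576-90475238, plus strand) with chr6:90462326-90462575 shown. Klf9 lies on chromosome 19 (chr19:23141226-23168134, plus strand) with chr19:23140976-23141225 shown. Klf13 lies on chromosome 7 (chr7:63886351-63938915, minus strand) with chr7:63938916-63939165 shown.
Klf11: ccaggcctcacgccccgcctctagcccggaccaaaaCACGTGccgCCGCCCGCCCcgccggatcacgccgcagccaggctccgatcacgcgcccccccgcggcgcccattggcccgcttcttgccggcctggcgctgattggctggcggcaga
Klf15: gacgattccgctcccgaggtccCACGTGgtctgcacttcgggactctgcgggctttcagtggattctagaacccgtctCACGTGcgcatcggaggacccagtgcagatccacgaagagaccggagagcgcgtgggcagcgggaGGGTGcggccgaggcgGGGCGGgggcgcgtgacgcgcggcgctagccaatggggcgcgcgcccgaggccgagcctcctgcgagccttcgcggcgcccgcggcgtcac
Klf9: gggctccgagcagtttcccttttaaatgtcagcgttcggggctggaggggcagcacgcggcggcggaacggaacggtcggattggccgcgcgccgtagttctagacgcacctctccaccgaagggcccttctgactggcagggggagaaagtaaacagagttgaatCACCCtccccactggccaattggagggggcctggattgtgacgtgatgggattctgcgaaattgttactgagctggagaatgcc
Klf13: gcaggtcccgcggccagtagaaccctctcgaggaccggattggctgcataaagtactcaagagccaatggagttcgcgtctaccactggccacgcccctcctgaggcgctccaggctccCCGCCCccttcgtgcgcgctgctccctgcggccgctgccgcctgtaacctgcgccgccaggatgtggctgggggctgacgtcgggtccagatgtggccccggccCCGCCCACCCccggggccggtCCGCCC

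Of the 10 genes, 9 had an entry among 32851 RefSeq windows reaching from 250 bases before to 50 bases after a start. CACGTG was found in the windows of Klf4, Klf6, Klf11 and Klf15, 4 of 9, against 7.15% of all windows. Counted from the RefSeq start of each window, which for Klf11 lies 97 bases inside the gene as placed above, the Klf15 window held it at -228, -172 and -3, the last running past the end of the bases shown, and the Klf11 window at -214. CACCC was present in 6 of 9 windows, against 57.5% of all, and GGGCGG in 8 of 9, against 35.7%, and these motifs can overlap, as in the CCGCCCACCC run of Klf13. The Klf9 window held TGTTTAC, a FOXO-type motif found in 3.65% of all windows, on the minus strand at -100, and TGANTCA, an AP-1-type motif found in 7.81%, at -89, which overlaps its CACCC at -84. TGACG, present in 20.8% of windows, was in 6 of 9, and CCAAT, present in 37.4%, in 5 of 9. The MEF2 site was in the Klf2 window, at -118, and in 3.19% of all windows. TATAAA (13.6% of all windows), TGATGNAA (3.97%), CATGTC (10.1%), TGACGTCA (1.79%), the CArG box (1.63%) and the glucocorticoid response element (0.475%) were in none of the 9 windows. The 250 bases before the start were 59.2% to 78.4% G and C in the 9 windows, against a median of 52.4% over all windows. The part of base composition in these shares was not tested. These matches are letters in a window, and binding was not measured.

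The first comparison asked which Klf genes change when the control line is starved. In shRenilla MEFs, Klf11 and Klf15 were about 8-fold higher in Starv than in FM and Klf9 was 2.39-fold higher, while Klf13 was lower. These 4 of the 10 genes passed an adjusted p of 0.05 (edgeR quasi-likelihood test, Benjamini-Hochberg over all 12154 tested genes), where 17.0% of all tested genes were called, 9.69% as higher and 7.27% as lower. The median log2 fold change of the 10 genes was 0.56, against -0.01 over all tested genes. As the 10 were proposed with these data in view, this median describes them and not the Klf family. The median was -0.15 over the 5 other tested Klf genes and 0.47 over the 6 tested Sp genes described below. The FM and Starv libraries did not overlap for 7 of the 10, beside 52.4% of all tested genes. Without shBruce Starv replicate 1, which enters the shared estimate of spread, 7 of the 10 were called, with Klf2, Klf4 and Klf10 added as higher, beside 26.2% of all tested genes. There were 6 without shBruce Starv replicate 3, with Klf2 and Klf10 added, beside 25.5%.

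The second comparison asked the same of the BRUCE knockdown line. In shBruce MEFs 6 of the 10 genes were called, Klf2, Klf4, Klf9, Klf11 and Klf15 as higher and Klf13 as lower, beside 23.0% of all tested genes (12.4% higher and 10.6% lower). The median log2 fold change of the 10 genes was 0.85, against 0.02 over all tested genes, and again describes these 10. It was -0.21 over the 5 other tested Klf genes and 0.33 over the 6 tested Sp genes. Calls numbered 7 without shBruce Starv replicate 1, with Klf10 added, beside 23.9% of all tested genes, and without replicate 3 it was 8, with Klf6 and Klf7 added, beside 32.7%. The libraries of both media did not overlap for 6 of the 10, beside 30.9% of all tested genes. Called in both lines were Klf9, Klf11, Klf13 and Klf15, each in the same direction. The lines share no library in these comparisons, but they were fitted together.

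**Figure D2:**
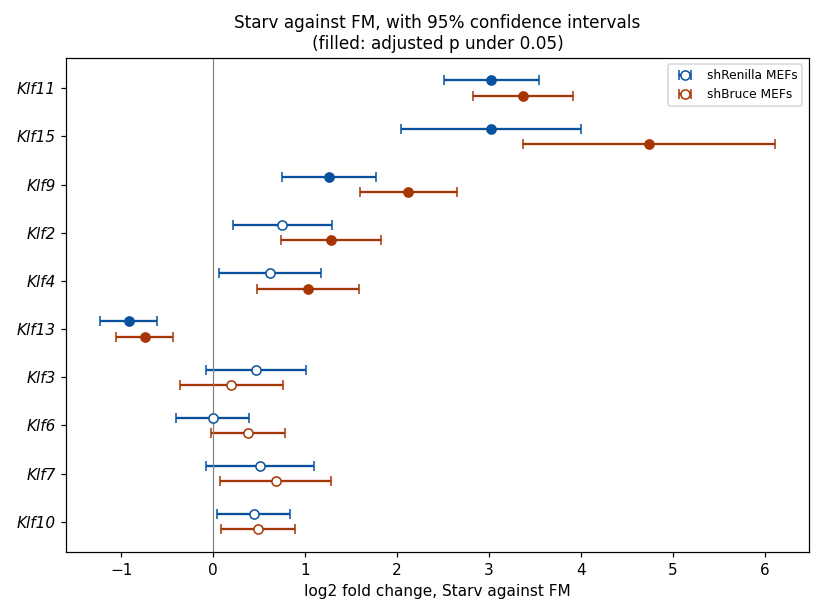
Log2 fold change of Starv against FM (x axis) for each Klf gene in shRenilla (blue, upper) and shBruce MEFs (brown, lower), with 95% confidence intervals from the edgeR fit and filled points for an adjusted p under 0.05. Klf11 is near 3 in both lines, Klf15 is widest in shBruce MEFs, and the intervals of the lines overlap for every gene.

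Klf11, a Sin3-binding repressor that is also induced by TGF-beta, changed most among the genes with ample counts. Its normalized counts were 95.5, 82.0 and 106 in shRenilla FM and 792, 749 and 768 in shRenilla Starv. In shBruce MEFs they were 68.0, 49.2 and 51.6 in FM and 386, 533 and 815 in Starv. Every starved library was above every fed one, and the starved shBruce libraries spread far more than the starved shRenilla ones. Its log2 fold change was 3.02 ± 0.24 (SE; adjusted p = 3.79e-06) in shRenilla and 3.37 ± 0.25 (adjusted p = 1.99e-06) in shBruce MEFs. It was called in all 12 fits that left out a library, and the value in shBruce MEFs ranged from 3.04 without Starv replicate 3 to 3.57 without Starv replicate 1.

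Klf15, known for amino acid catabolism and gluconeogenesis in liver and muscle, was barely detected in FM. Its raw counts were 6, 7 and 8 in shRenilla FM and 67, 45 and 64 in shRenilla Starv. In shBruce MEFs they were 3, 0 and 1 in FM and 9, 32 and 66 in Starv, and the count of 0 allows up to 3 counts, or 3.14 normalized counts, in that library. The starved libraries were above the fed ones in both lines, while the shBruce Starv libraries covered a range from 18.2 to 61.3 normalized counts. Klf15 passed the filter on low counts through these starved libraries, the ones in which it was high, so its calls are a description. It was also called in both lines in the fit with no filter. The fitted log2 fold change was 3.02 ± 0.45 (adjusted p = 0.000608) in shRenilla MEFs. The fitted 4.74 ± 0.63 (adjusted p = 0.000234) in shBruce MEFs rests on 4 counts in FM and depends on the prior count. It was 5.99 without shBruce FM replicate 1, 4.20 without shBruce FM replicate 2 and 5.00 without shBruce Starv replicate 1. The ratio of summed counts, scaled by library size, was 31.0 in shBruce MEFs with an exact binomial interval of 11.7 to 116, and 8.24 with an interval of 5.23 to 13.7 in shRenilla MEFs, intervals that cover counting error only.

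Klf9, a small Sin3-binding factor induced by steroid and thyroid hormones, rose in both lines. It was at 680, 613 and 599 normalized counts in shRenilla FM and at 1491, 1514 and 1517 in shRenilla Starv. In shBruce FM it was at 574, 490 and 621, and in shBruce Starv at 3787, 1790 and 1781. Replicates 2 and 3 of shBruce Starv lay somewhat above the starved shRenilla libraries, and replicate 1 was at 2.12-fold the mean of replicates 2 and 3. The log2 fold change was 1.26 ± 0.24 (adjusted p = 0.00302) in shRenilla and 2.12 ± 0.25 (adjusted p = 7.72e-05) in shBruce MEFs, where it was 1.65 without replicate 1 and still called.

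Klf13, a relative of Klf9 known from T cells and heart, was the gene that fell. It was at 2584, 2678 and 2610 normalized counts in shRenilla FM and at 1440, 1399 and 1318 in shRenilla Starv. The shBruce libraries gave 2413, 2538 and 2755 in FM and 1956, 1326 and 1321 in Starv. No starved library reached a fed one in either line. Its log2 fold change was -0.92 ± 0.14 (adjusted p = 0.000785) in shRenilla and -0.75 ± 0.14 (adjusted p = 0.0026) in shBruce MEFs, where it was -0.97 without Starv replicate 1. The call stood in all 12 fits that left out a library and in all 11 other alternatives.

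Klf2 and Klf4, activators that are induced by ERK5 and MEF2 and known from endothelium, epithelium and stem cells, passed the threshold in shBruce MEFs. Klf2 was at 297, 323 and 300.2 normalized counts in shRenilla FM and at 477, 447 and 624 in shRenilla Starv. In the knockdown line it was at 313, 244 and 321 in FM and at 1092, 525 and 534 in Starv. Its starved libraries were above the fed ones in both lines. The fitted log2 fold change was 0.75 ± 0.25 (adjusted p = 0.0555) in shRenilla and 1.28 ± 0.25 (adjusted p = 0.00308) in shBruce MEFs, and 0.84 in shBruce MEFs without replicate 1 of Starv. Klf2 was also called in shRenilla MEFs in 7 of 11 other alternatives.

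Klf4 was at 846, 807 and 790 normalized counts in shRenilla FM and at 1286, 1190 and 1267 in shRenilla Starv. The knockdown libraries held 732, 766 and 1409 in FM and 2818, 1469 and 1663 in Starv. Replicate 3 of shBruce FM was high and reached above the starved shRenilla libraries, and it was one of the 4.43% of tested genes that this library held more than 1.5-fold above both others. The log2 fold change was 0.61 ± 0.26 (adjusted p = 0.12) in shRenilla and 1.03 ± 0.26 (adjusted p = 0.0121) in shBruce MEFs. The shBruce value was 0.68 without Starv replicate 1 and 1.40 without FM replicate 3. The call was lost without FM replicate 1, without FM replicate 2, and when only the shBruce libraries were fitted.

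Klf10, the closest relative of Klf11, changed far less. It was at 939, 853 and 944 normalized counts in shRenilla FM and at 1274, 1280 and 1153 in shRenilla Starv, with no overlap. In shBruce MEFs it was at 741, 650.1 and 904 in FM and at 761, 1048 and 1390 in Starv, which overlapped. Its log2 fold change was 0.44 ± 0.19 (adjusted p = 0.125) and 0.48 ± 0.19 (adjusted p = 0.0798), neither past the threshold. Without shBruce Starv replicate 1 it was 0.45 and 0.66, and both values were past the threshold.

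Klf6, an injury- and serum-induced activator, had the highest level and a starvation value of -0.01 ± 0.18 in shRenilla MEFs, from 4377, 3679 and 4204 normalized counts in FM and 4109, 4182 and 3893 in Starv. The shBruce libraries gave 3254, 2587 and 2422 in FM and 4867, 3079 and 2823 in Starv, with a log2 fold change of 0.38 ± 0.19 that did not pass the threshold. It was 0.09 without Starv replicate 1, and 0.52 and past the threshold without Starv replicate 3 (adjusted p = 0.0392). The fed and starved libraries overlapped in both lines. Its 95% interval in shRenilla MEFs ran from -0.41 to 0.39.

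Klf7, a relative of Klf6 known from neurons, was at 127, 118 and 141 normalized counts in shRenilla FM and at 214, 202 and 130.4 in shRenilla Starv. In the knockdown line it was at 97.7, 142 and 119 in FM and at 297, 149 and 142 in Starv. The log2 fold changes of 0.51 ± 0.27 and 0.68 ± 0.28 did not pass the threshold, and the second was 0.27 without shBruce Starv replicate 1, and 0.86 and past the threshold without replicate 3 (adjusted p = 0.0345). Klf3 was at 757, 567 and 731 in shRenilla FM and at 1084, 1022 and 726 in shRenilla Starv. Its log2 fold change was 0.46 ± 0.25 in shRenilla and 0.19 ± 0.26 in shBruce MEFs, and its libraries overlapped in both lines. The shBruce value was -0.02 without Starv replicate 1 and 0.49 without Starv replicate 2, so its sign turned with 1 library.

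The comparison of the lines in FM asked whether the knockdown line differs before starvation. None of the 10 Klf genes was called by edgeR, as for all tested genes, where 0% were called. At an unadjusted p under 0.05 there were 4 of the 10, beside 14.4% of all tested genes, and DESeq2 and limma-voom also called 0 of the 10. The 4 were Klf3, Klf6, Klf11 and Klf15, all lower in shBruce FM and with no overlap between the lines, beside 33.4% of all tested genes without overlap. Klf6 was 0.67-fold (log2 -0.57 ± 0.19), Klf3 0.63-fold (-0.66 ± 0.26) and Klf11 0.60-fold (-0.75 ± 0.25) of the shRenilla level. Klf15 was at 6.22 ± 1.18 normalized counts in shRenilla FM and 1.39 ± 1.63 in shBruce FM (SD, n = 3), a fitted -2.07 ± 0.83 that ranged from -3.32 without shBruce FM replicate 1 to -1.54 without shBruce FM replicate 2. For Klf2, Klf9 and Klf13 the fitted difference was between -0.17 and -0.03, with intervals from -0.61 to 0.48 for Klf2, from -0.68 to 0.35 for Klf9 and from -0.34 to 0.28 for Klf13.

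After starvation, 2 of the 10 genes were called between the lines, Klf9 as higher and Klf3 as lower in shBruce MEFs, beside 23.9% of all tested genes (12.8% higher and 11.2% lower). The libraries of the lines did not overlap for Klf3, Klf4 and Klf9, beside 34.9% of all tested genes. This comparison rests on the shBruce Starv libraries that stood apart. Leaving out 1 library at a time gave between 0 and 6 calls, with 0 without shRenilla Starv replicate 1, shRenilla Starv replicate 2 or shBruce Starv replicate 2. In those 3 fits between 0% and 0.122% of all tested genes were called. Klf3 alone was called without shBruce Starv replicate 1, beside 4.68% of all tested genes. The 6 genes called without shBruce Starv replicate 3 were Klf2, Klf3, Klf4, Klf9, Klf10 and Klf11, beside 46.7% of all tested genes.

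Klf3, which represses genes through CtBP, was at 395, 425 and 481 normalized counts in shBruce FM and at 636, 275 and 586 in shBruce Starv. All 6 shBruce values were below the shRenilla values of the same medium. The difference in Starv was -0.93 ± 0.26 on the log2 scale (adjusted p = 0.0285), and it was called in 9 of 12 fits that left out a library, with values from -1.14 without shBruce Starv replicate 1 to -0.63 without shBruce Starv replicate 2. It was lost without shRenilla Starv replicate 1, shRenilla Starv replicate 2 or shBruce Starv replicate 2. With trends of gene length and GC content removed from each library it was -0.59 (adjusted p = 0.1). The part of length and GC content in this difference was not tested beyond that value.

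For Klf9 the difference between the starved lines was 0.70 ± 0.23 (adjusted p = 0.0468). Without shBruce Starv replicate 1 it was 0.23 (adjusted p = 0.165), and it was called in 1 of 12 fits that left out a library, the fit without shBruce Starv replicate 3, and in 6 of 11 other alternatives. Klf4 showed 0.66 ± 0.26 (adjusted p = 0.0718) and 0.31 without replicate 1, and 0.77 and past the threshold without replicate 3 (adjusted p = 0.0331). Klf2 showed 0.46 ± 0.25 and 0.02 without replicate 1, and 0.63 and past the threshold without replicate 3 (adjusted p = 0.0498). Klf11 at -0.40 ± 0.21, Klf15 at -0.35 ± 0.37, Klf10 at -0.21 ± 0.19 and Klf6 at -0.18 ± 0.19 lay below 0, and none of these passed the threshold. Without replicate 1 they were -0.20, -0.10, -0.03 and -0.48 in the same order, again not past it. Without replicate 3 Klf11 was -0.74 and Klf10 -0.45, both past it. Klf13 at 0.14 and Klf7 at 0.07 turned to -0.08 and -0.34 without replicate 1 and were not called in either fit.

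**Figure D3:**
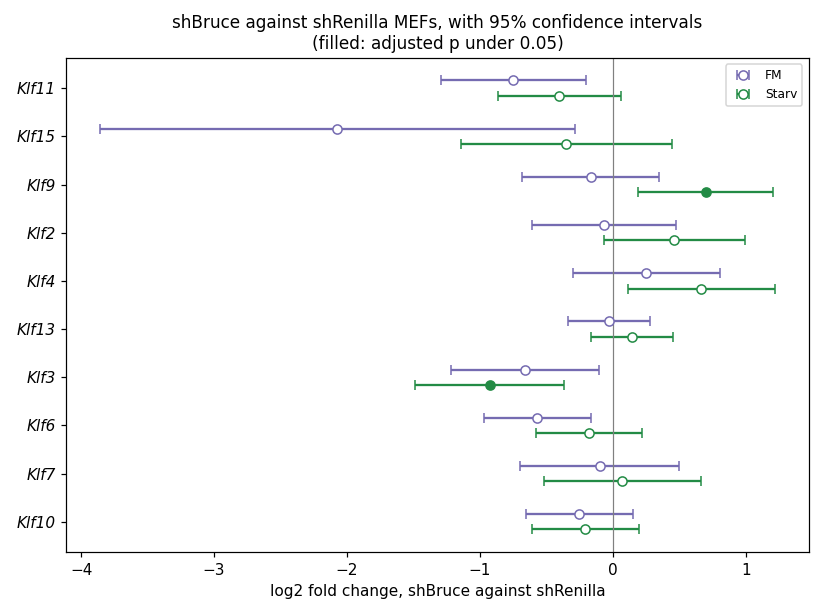
Difference between the lines, as the log2 fold change of shBruce over shRenilla MEFs (x axis), for each Klf gene in FM (purple, upper) and Starv (green, lower), with 95% confidence intervals from the edgeR fit and filled points for an adjusted p under 0.05. No gene is filled in FM, and Klf9 (0.70) and Klf3 (-0.93) are filled in Starv.

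The spread among the starved shBruce libraries divided the Klf genes. Replicate 1 was 2.12-fold the mean of the other two for Klf9, 2.06-fold for Klf2, 2.04-fold for Klf7, 1.80-fold for Klf4 and 1.65-fold for Klf6. For these 5 of the 10 genes it was more than 1.5-fold above both others, beside 9.47% of all tested genes. It was 1.48-fold the mean of the others for Klf3 and for Klf13, 0.62-fold for Klf10, 0.57-fold for Klf11 and 0.38-fold for Klf15, and more than 1.5-fold below both others for Klf15. Replicate 3 held Klf11 and Klf15 more than 1.5-fold above both others, as for 8.95% of all tested genes. That replicate 1 also had the lowest total count is a measured fact, and the part of depth in these values was not tested.

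**Figure D4:**
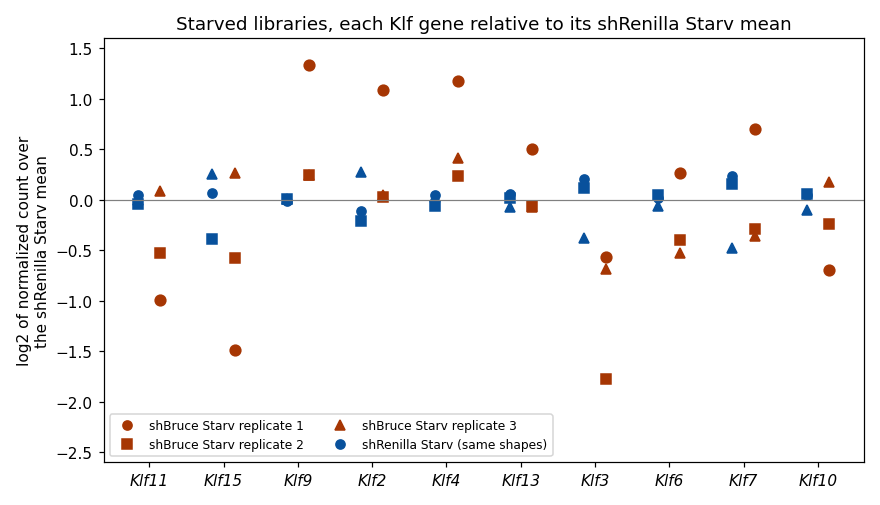
Log2 ratio of the normalized count of each starved library to the shRenilla Starv mean of the same gene (y axis), in shRenilla (blue) and shBruce MEFs (brown), with circles, squares and triangles for replicates 1, 2 and 3. Replicate 1 of shBruce Starv is the highest of all starved libraries for Klf9, Klf2, Klf4, Klf13, Klf6 and Klf7 and the lowest for Klf11, Klf15 and Klf10.

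The interaction, which asks whether starvation moved a gene by a different amount in the lines, called 0 of the 10 Klf genes and 0 of all tested genes in edgeR, with 1 and 474 (3.90%) at an unadjusted p under 0.05. DESeq2 and limma-voom also called 0 of the 10. The gene below an unadjusted 0.05 was Klf9, with 0.86 ± 0.33 on the log2 scale and an interval of 0.14 to 1.59 (adjusted p = 0.806), which was 0.38 without shBruce Starv replicate 1. The interval of the interaction was -0.37 to 1.06 for Klf11, -0.26 to 0.61 for Klf13, -0.23 to 1.29 for Klf2 and -0.37 to 1.19 for Klf4. Without shBruce Starv replicate 1 the value went from 0.34 to 0.53 for Klf11 and from 0.17 to -0.06 for Klf13. It went from 0.53 to 0.08 for Klf2 and from 0.41 to 0.05 for Klf4. Klf15 had the largest value, 1.72 (interval -0.25 to 3.69), or 1.96 without that replicate, and rests on 4 counts in shBruce FM.

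Over the 12 libraries, log2 CPM of Klf11 and Klf15 had a Pearson r of 0.98, and Klf13 ran opposite to both (r = -0.96 with Klf11 and -0.92 with Klf15). Klf2 and Klf9 had r = 0.97, and Klf4 had r = 0.90 with Klf2 and 0.89 with Klf9. Klf6 had r = 0.36 with Klf11 and 0.65 with Klf3. The 12 points share their 2 lines and 2 media, and the same libraries that stood apart enter each pair, so these values are a description. The gene of all 12154 with the most similar pattern was Txnip for Klf11 (r = 0.994), Oip5 for Klf15 (0.979), Pias1 for Klf9 (0.992), Jun for Klf13 (0.976), Tmem69 for Klf2 (0.977) and Paqr4 for Klf4 (0.983).

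The remaining family members were taken by name. Of 8 other Klf genes, 7 had a row and 5 passed the filter, and of 9 Sp genes 6 passed. In shRenilla MEFs, starvation called 5 of these 11 genes, Klf8, Sp2, Sp4 and Sp6 as higher and Klf16 as lower, beside 17.0% of all tested genes. In shBruce MEFs it called 3, with Klf1 and Sp4 higher and Klf16 lower, beside 23.0% of all tested genes. Between the starved lines 4 were called, Klf1 and Klf16 as higher and Klf8 and Sp3 as lower in shBruce MEFs, beside 23.9%. In FM and for the interaction 0 were called by edgeR, limma-voom and DESeq2. At an unadjusted p under 0.05 in edgeR there were 2 each, beside 14.4% and 3.90% of all tested genes. The 4 calls between the starved lines became 0 without shRenilla Starv replicate 1, shRenilla Starv replicate 2 or either of shBruce Starv replicates 1 and 2, beside at most 4.68% of all tested genes. They became 8 when the third shBruce Starv library was left out, beside 46.7%. The 5 calls in shRenilla MEFs became 2 without shRenilla FM replicate 2 or 3 or shRenilla Starv replicate 1 or 2, and 3 without shRenilla FM replicate 1. These fits called 9.34% to 9.94% of all tested genes. The 3 calls in shBruce MEFs became 5 without shBruce Starv replicate 1, beside 23.9%.

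Klf16, a Sin3-binding relative of Klf9 and Klf13, was at 1195, 1391 and 1234 normalized counts in shRenilla FM and at 639, 640 and 738 in shRenilla Starv. The knockdown libraries held 1543, 1517 and 1276 in FM and 1124, 983 and 758 in Starv. It fell by 0.92 ± 0.15 on the log2 scale (adjusted p = 0.00102) in shRenilla and by 0.60 ± 0.15 (adjusted p = 0.0112) in shBruce MEFs, where it fell by 0.75 without Starv replicate 1. The fed and starved libraries did not overlap in either line.

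Sp4, a GC-box activator known from neurons, was at 161, 99.96 and 148 normalized counts in shRenilla FM and at 292, 299 and 232 in shRenilla Starv, with a log2 fold change of 1.01 ± 0.20 (adjusted p = 0.00358). In shBruce MEFs it was at 87.1, 82.7 and 115 in FM and at 176, 195 and 223 in Starv, with 1.06 ± 0.21 (adjusted p = 0.00268), or 1.12 without Starv replicate 1. Sp4 was thus higher in each starved library than in each fed one of its line. Klf8, another CtBP-recruiting factor, was at 105 ± 15.8 in shRenilla FM and 193 ± 20.3 in shRenilla Starv, but at 92.6 ± 15.2 and 101 ± 38.3 in shBruce MEFs (SD, n = 3). Its difference between the starved lines was -0.91 ± 0.24 (adjusted p = 0.0256), but -0.82 and not called without shBruce Starv replicate 1 (adjusted p = 0.0665), and its interaction of -0.73 ± 0.34 did not pass (adjusted p = 0.806).

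Klf1, the erythroid factor, was at 6.77 ± 0.35 normalized counts in shRenilla FM, 6.08 ± 0.78 in shRenilla Starv and 4.52 ± 2.25 in shBruce FM, and at 14.7 ± 1.14 in shBruce Starv. Its log2 fold change on starvation was 1.69 ± 0.38 in shBruce MEFs (adjusted p = 0.0068), or 1.70 without Starv replicate 1, at these low counts, while the erythroid genes Hba-a1 and Hbb-bs were at 0. Klf1 passed the filter on low counts through the shBruce Starv libraries, the group in which it was higher. Its calls on starvation and between the starved lines are therefore a description. Klf5, a serum-responsive relative of Klf4, was at 895 ± 9.27 in shRenilla FM and 689 ± 43.9 in shRenilla Starv, a log2 fold change of -0.38 that was not called (adjusted p = 0.089). In shBruce MEFs it was -0.21 and not called. Without shBruce Starv replicate 1, Klf5 was called as lower in shRenilla (-0.36) and in shBruce MEFs (-0.40). Without replicate 3 it was called in shRenilla (-0.38) but not in shBruce MEFs (-0.10). Sp1, the founding member of the Sp group, showed 0.47 in shRenilla and 0.34 in shBruce MEFs and was not called in either.

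**Figure D5:**
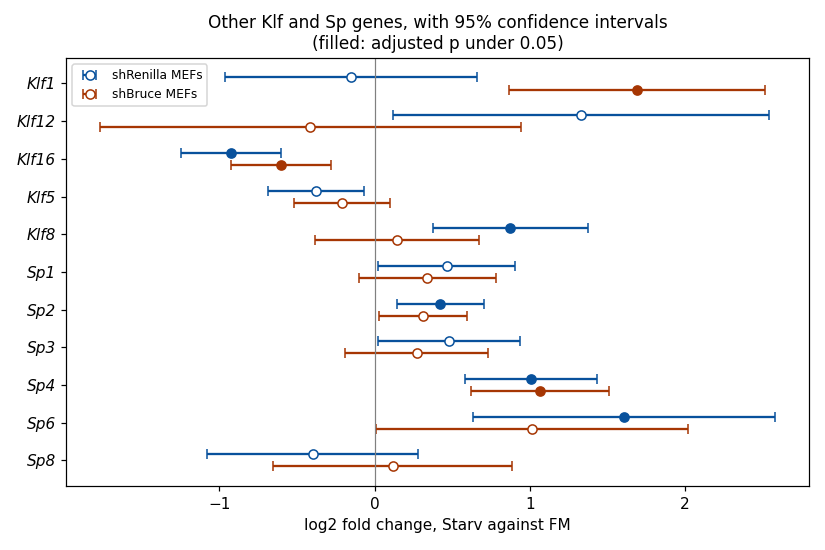
Log2 fold change of Starv against FM (x axis) for the other tested Klf and Sp genes in shRenilla (blue, upper) and shBruce MEFs (brown, lower), with 95% confidence intervals from the edgeR fit and filled points for an adjusted p under 0.05. Klf16 is below 0 and Sp4 above 0 with filled points in both lines.

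Genes of the pathways around these factors were counted by lists written from general knowledge. Of 12 tested genes of TGF-beta and Smad signalling, which induces Klf10 and Klf11, starvation called 0 higher and 1 lower in shRenilla MEFs (median log2 fold change -0.23) and 1 higher and 4 lower in shBruce MEFs (median -0.56). Of all tested genes, 17.0% were called in shRenilla and 23.0% in shBruce MEFs. The inhibitor Smad7 was at 702 ± 26.4 normalized counts in shRenilla FM and 291 ± 14.5 in shRenilla Starv, and changed by -1.27 in shRenilla and -1.26 in shBruce MEFs. In shBruce MEFs the receptor gene Tgfbr2 (-1.13), the corepressor gene Tgif1 (-0.70) and Smad3 (-0.59) were also lower, and Smad4 (0.42) was the gene called as higher. Without shBruce Starv replicate 1 Smad3 was still called there (-0.47) and Smad4 was not (0.29). Between the starved lines 2 of the 12 were called, Skil (-0.74) and Tgfbr2 (-0.72), both lower in shBruce MEFs, beside 23.9% of all tested genes. With shBruce Starv replicate 1 left out, Tgfbr2 was not called there (-0.63) and Skil was (-0.72), while the starvation counts in shBruce MEFs became 0 higher and 5 lower (median -0.38). That fit called 4.68% of all tested genes between the starved lines and 23.9% on starvation in shBruce MEFs.

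Of 6 tested genes of the glucocorticoid receptor route, which induces Klf9 and Klf15, starvation called 1 higher and 2 lower in shRenilla and 1 higher and 3 lower in shBruce MEFs. The shares of all tested genes were 17.0% and 23.0%. Tsc22d3, which encodes GILZ, was at 182 ± 30.7 normalized counts in shRenilla FM and 1150 ± 77.2 in shRenilla Starv, and its log2 fold change was 2.66 in shRenilla and 2.58 in shBruce MEFs. Sgk1 (-1.20 and -1.54) and Errfi1 (-2.23 and -2.55) were lower in both lines and Per1 (-0.43) in shBruce MEFs, while Fkbp5 showed 0.13 and 0.03 and was not called. Without shBruce Starv replicate 1 the counts in shBruce MEFs were again 1 and 3, with Tsc22d3 at 2.46, Sgk1 at -1.34, Errfi1 at -2.28 and Per1 at -0.48. Between the starved lines edgeR called 0 of the 6, beside 23.9% of all tested genes. At an unadjusted p under 0.05 there was 1, beside 41.2% of all tested genes.

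Of 7 genes of the ERK5 and MEF2 route to Klf2 and Klf4, Mapk7, which encodes ERK5, was lower in both lines (-0.46 and -0.66), and Mef2c was higher in shBruce MEFs (1.05). Between the starved lines Map3k2 (-0.85) and Mef2d (-0.55) were lower in shBruce MEFs. Of 5 tested genes of amino acid breakdown, a process tied to Klf15, Bckdha, a subunit of the branched-chain ketoacid dehydrogenase, was the called gene in each line (0.81 and 1.13), from 249 ± 10.4 to 435 ± 50.1 normalized counts in shRenilla MEFs, and it was also called between the starved lines (0.76). Of 9 genes for CtBP, Sin3, histone deacetylase and acetyltransferase cofactors, starvation called 0 in edgeR in either line, with 2 in shRenilla and 4 in shBruce MEFs at an unadjusted p under 0.05 (beside 31.6% and 36.3% of all tested genes), and Hdac1 (0.61) and Sin3b (0.52) were higher in shBruce than in shRenilla Starv. Of 5 ubiquitin ligase genes known to act on KLF proteins, Smurf1 (-0.52) and Smurf2 (-0.53) were lower on starvation in shBruce MEFs, and Smurf2 (-0.64) and Wwp1 (-0.87) were lower between the starved lines. For these lists edgeR called 0 genes in FM between the lines and 0 for the interaction, as for all tested genes. Of all tested genes, 17.0% were called on starvation in shRenilla MEFs, 23.0% in shBruce MEFs and 23.9% between the starved lines. Of the calls between the starved lines for the last 4 lists, Smurf2 (-0.58) was called without shBruce Starv replicate 1, and Hdac1 (0.31), Sin3b (0.33), Map3k2 (-0.81), Mef2d (-0.54), Wwp1 (-0.75) and Bckdha (0.44) were not, beside 4.68% of all tested genes. On starvation in shBruce MEFs, Mapk7 (-0.60), Mef2c (0.78), Bckdha (0.81), Smurf1 (-0.48) and Smurf2 (-0.47) were called without shBruce Starv replicate 1 too, beside 23.9%. Leaving out shBruce Starv replicate 3 made the calls between the starved lines 6 of the 12 TGF-beta genes, 2 of the 6 glucocorticoid genes, 4 of the 7 ERK5 and MEF2 genes, 2 of the 5 amino acid genes, 5 of the 9 cofactors and 4 of the 5 ligases, beside 46.7% of all tested genes.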

How the data were processed

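Poly(A) RNA of 12 MEF libraries was sequenced as single 50-base reads. The authors removed rRNA reads, mapped the rest to mm10 with STAR 2.4.0d and counted reads per gene with HTSeq 0.5.4p3, and deposited raw counts for 24062 gene symbols. The annotation and the strand setting of the counting are not given in the sources used here. Symbols turned into dates took 0.296% of counts, and 0 columns were left unused. Labels do not say whether replicates came from separate cultures, so p-values measure the spread between these libraries.

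For each gene the counts were modelled in edgeR 4.0.16 (R 4.3.3, TMM, filterByExpr, a mean for each of the 4 conditions over all 12 libraries, quasi-likelihood test, two-sided, Benjamini-Hochberg over 12154 genes, level 0.05). Alternatives used limma 3.58.1, DESeq2 1.42.0, other scalings and filters, trends of length and GC content removed, a replicate block, and libraries left out. The procedure was tested on simulated data with the same dispersion for every gene and no library that stood apart. That test therefore does not cover libraries that stand apart, as in shBruce Starv. Total counts were 7717265 to 18510540 per library. Replicate spread is given as SD or SE and was not compared with counting error gene by gene. Intervals are at 95%. Lengths and positions came from GENCODE M21 on GRCm38.

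The members, lists and tests were chosen with earlier results of these data known. All 10 members were named, with called genes of the other Klf and Sp genes and at most 4 called genes of each list and comparison. Smad4 was named besides these, as the gene called in the other direction. A gene of the TGF-beta and Smad list is not reported here and was left out of its counts. The gene of most similar pattern was the one of highest Pearson r of log2 CPM (prior count 2).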

Additional observations from a re-analysis of the deposited data

How the results depend on the processing

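No direction of a called Klf gene reversed under any alternative run. Under starvation, the counts of called Klf genes (4 in shRenilla and 6 in shBruce MEFs) moved to 9 in shRenilla MEFs when only the groups compared were fitted and to 7 with shBruce FM replicate 3 and shBruce Starv replicate 1 both left out, an alternative chosen after seeing the data. Leaving out 1 library gave 4 to 7 in shRenilla and 5 to 8 in shBruce MEFs. In FM the lines gave 2 with only the groups compared (Klf3 and Klf6, lower), and 0 with each library left out in turn. Between the starved lines the count of 2 became 1 with limma-voom, 1 with trends of length and GC content removed, 0 with only the groups compared, 0 for a change of at least 2-fold, and 0 to 6 without 1 library. The causes were not tested.

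Over all genes, the 2061 calls of shRenilla starvation became 5029 with only the groups compared, 3624 with both libraries left out, 726 at 2-fold and 1149 to 3212 without 1 library. The 2790 of shBruce starvation became 943 with only the groups compared, 920 at 2-fold and 1855 to 4009 without 1 library. The 0 in FM became 76 with DESeq2, 7 with no filter, 2 with trends removed, 572 with only the groups compared and 0 to 32 without 1 library. The 2907 between the starved lines became 1005 with trends removed, 0 with only the groups compared, 847 with both left out, 512 at 2-fold and 0 to 5735 without 1 library. For the other Klf and Sp genes, shRenilla starvation (5) gave 9 with only the groups compared, 2 at 2-fold and 2 to 7 without 1 library, shBruce starvation (3) gave 1 with only the groups compared, 5 with both left out and 3 to 5 without 1 library, and the starved lines (4) gave 0 with trends removed, 0 with only the groups compared, 1 with both left out, 1 at 2-fold and 0 to 8 without 1 library.

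Labels do not say whether replicate numbers pair the libraries. Deviations from the condition means correlated from -0.456 to 0.347 for same-numbered libraries and from -0.379 to 0.509 for differently numbered ones. With 3 libraries per condition these values cannot show whether replicates were handled in sets, so a replicate block is an alternative only. With the block, the starved lines gave 1 called Klf gene (Klf3) and 1932 genes, and with the block and trends removed 0 Klf genes, 1 gene overall and 0 other Klf and Sp genes, while FM gave 2 genes overall. The block alone changed no call of a Klf gene in either starvation comparison. Upper-quartile scaling moved the median of all genes to 0.11 in shBruce starvation and called Klf10 there. Requiring 10 counts in every library left out Klf15. With only the groups compared the interaction could not be fitted. Depth limits Klf15 and Klf1, at under 10 normalized counts in FM.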
